A study of Homo sapiens with 6 samples.

Results

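The G2/M and mitosis genes described here were 47 named genes whose products carry a cell from the end of DNA replication through chromosome segregation to division. They are listed by name, from mitotic kinases, checkpoint and kinetochore proteins, kinesins, condensin and their regulators. The rule uses no measured value, but the list was drawn up with earlier results of these data known. All 47 had a probe set of their own on the array, 88 probe sets in all, among 19775 genes and 54675 probe sets. Each gene was read through the probe set with its highest mean, and all 47 were among the 10370 genes that passed a filter on low values (log2 of 4 or more on 2 or more of the 6 arrays). INCENP passed only through the Express arrays of the resistant variants and lay under 4 on both wild type arrays, so its change against wild type depends on the background estimate. The other 46 lay at 4 or more on every array.

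The cells were HT-29, an established human colon adenocarcinoma line, in 3 variants with 2 arrays each. BR100 and BR200 are bortezomib-resistant variants. Bortezomib is a drug that blocks the proteasome, the protease that degrades ubiquitin-tagged proteins. Per the labels, cells were kept in bortezomib raised stepwise from 20 to 300 nM during 7 months, and clones were then isolated by limiting dilution in 100 or 300 nM during another 4 months. The same text stands on all 6 samples, wild type included, and gives neither the cloning dose of BR200 nor whether drug was present at harvest. How many clones a variant holds is not given either. Each variant had an array from the Express labelling kit, with 100 ng of RNA (replicate 1), and an array from the One-Cycle kit, with 3 ug (replicate 2). Separate cultures are not stated for them, so the p-values measure only the spread between these arrays, which may be technical.

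Entry into mitosis is driven by CDK1 bound to cyclin B, which CDC25 phosphatases switch on, while Polo and Aurora kinases build the spindle. Kinetochores attach chromosomes to spindle microtubules, and the spindle checkpoint holds back the anaphase-promoting complex (APC/C) until all are attached. The APC/C then tags cyclin B and securin for the proteasome, which frees separase to part the sister chromatids. Many genes of this phase are transcribed in G2 by FOXM1 and by MYBL2 with the MuvB complex, which binds the CHR element, and are held down earlier in the cycle by the related DREAM complex. In tissue and in cultured lines such as this one, their summed RNA is known to follow the share of dividing cells.

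In the resistant variants most of these genes were higher than in wild type. A gene counted as called where limma gave an adjusted p under 0.05, by Benjamini-Hochberg over all 10370 genes. In BR100, 40 of the 47 were called in either direction, against 68.5% of all genes, and in BR200 36, against 66.5%. In BR100, 39 of the 47 were called higher (83% of them, against 36.7% of all genes tested) and 1 lower (31.8% of all genes were called lower). In BR200, 32 were called higher (68.1%, against 35.4% of all genes) and 4 lower (31.2% of all genes). INCENP passed the filter only where it was higher, and without it 38 of 46 were called higher in BR100 and 31 of 46 in BR200. Their median change was 0.75 on the log2 scale in BR100, or 1.68-fold, and 0.56 in BR200, or 1.47-fold. Over all genes tested the median change was 0.04 in each. Within the Express kit the median change was 0.68 in BR100 and 0.52 in BR200, and within the One-Cycle kit it was 0.79 and 0.58. BR100 and BR200 were compared with the same 2 wild type arrays, so their changes share those controls.

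Of the 47 genes, 32 were called higher in both resistant variants (31.1% of all genes were) and 7 in BR100 alone at this threshold, namely PLK1, AURKA, CCNB2, ESPL1, CENPF, SMC4 and TOP2A (5.51% of all genes). NDC80 was called lower in both (26.8% of all genes were). CDC25B, CDC25C and CENPE were called lower in BR200 and not called in BR100 (4.24% of all genes). NEK2, CENPA, KIF2C and NUSAP1 were called in neither (23.3% of all genes). Calls in 1 variant alone do not show a difference between the variants, which is tested further on. For 30 genes all 4 resistant arrays lay above both wild type arrays (63.8%, against 32.5% of all genes), for 3 they lay below (CDC25B, CDC25C and NDC80, 6.38%, against 28.6% of all genes), and for 14 they overlapped (29.8%, against 38.9% of all genes). Being called and at least 2-fold higher held for 14 of the 47 in BR100 (29.8%, against 13.7% of all genes) and for 9 in BR200 (19.1%, against 13% of all genes).

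Fewer calls were made with an array left out, among these genes and over the whole array. Leaving out 1 array at a time left 33 to 37 of the 47 called in BR100, with 53.4% to 63.7% of all genes, and 27 to 35 in BR200, with 49.8% to 62.3% of all genes. These fits have 1 residual degree of freedom, and a variant left with 1 array is assumed to vary like the others. No called gene changed direction. In BR100, 8 of the called genes lost the call without some array, 2 of them, AURKA (adjusted p 0.052 to 0.116) and NDC80 (0.061 to 0.204), without any of the 6. CENPF lost it without any array but wild type Express (adjusted p 0.0712 to 0.192) and PLK1 without any but BR100 Express (0.0697 to 0.212). INCENP lost it without BR100 Express or wild type One-Cycle (0.0639 and 0.0661), KIF14 without BR100 or wild type One-Cycle (0.082 and 0.062), SMC4 without either BR100 array (0.0562 and 0.0579) and TOP2A without BR100 One-Cycle (0.0917). Without wild type One-Cycle, CDC25B was called lower in BR100 (-0.59, adjusted p 0.0307) and CENPA higher (0.56, adjusted p 0.017).

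In BR200, 9 called genes lost the call in this way, among them all 4 that were lower. CDC25B lost it without either BR200 array (adjusted p 0.071 and 0.0873), CDC25C without either of them or wild type Express (0.069 to 0.103), CENPE without BR200 One-Cycle or either wild type array (0.0653 to 0.0845), and NDC80 without either BR200 array or wild type One-Cycle (0.0711 to 0.0965). Over the same fits the changes themselves ran from -0.92 to -0.48 for CDC25B, -0.60 to -0.39 for CDC25C, -0.50 to -0.32 for CENPE and -0.37 to -0.28 for NDC80, all below 0. Of the genes that were higher, INCENP lost the call without any array but BR200 Express (adjusted p 0.0642 to 0.214) and KIF14 without any BR200 or wild type array (0.0547 to 0.139). KIF4A lost it without either BR200 array or wild type One-Cycle (0.0555 to 0.068), RACGAP1 without either BR200 array or wild type Express (0.0664 to 0.105), and TPX2 without BR200 or wild type One-Cycle (0.0567 and 0.0876). CENPA was called higher without wild type One-Cycle (0.43, adjusted p 0.028) and TOP2A without wild type Express (0.47, adjusted p 0.0225).

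**Figure D1:**
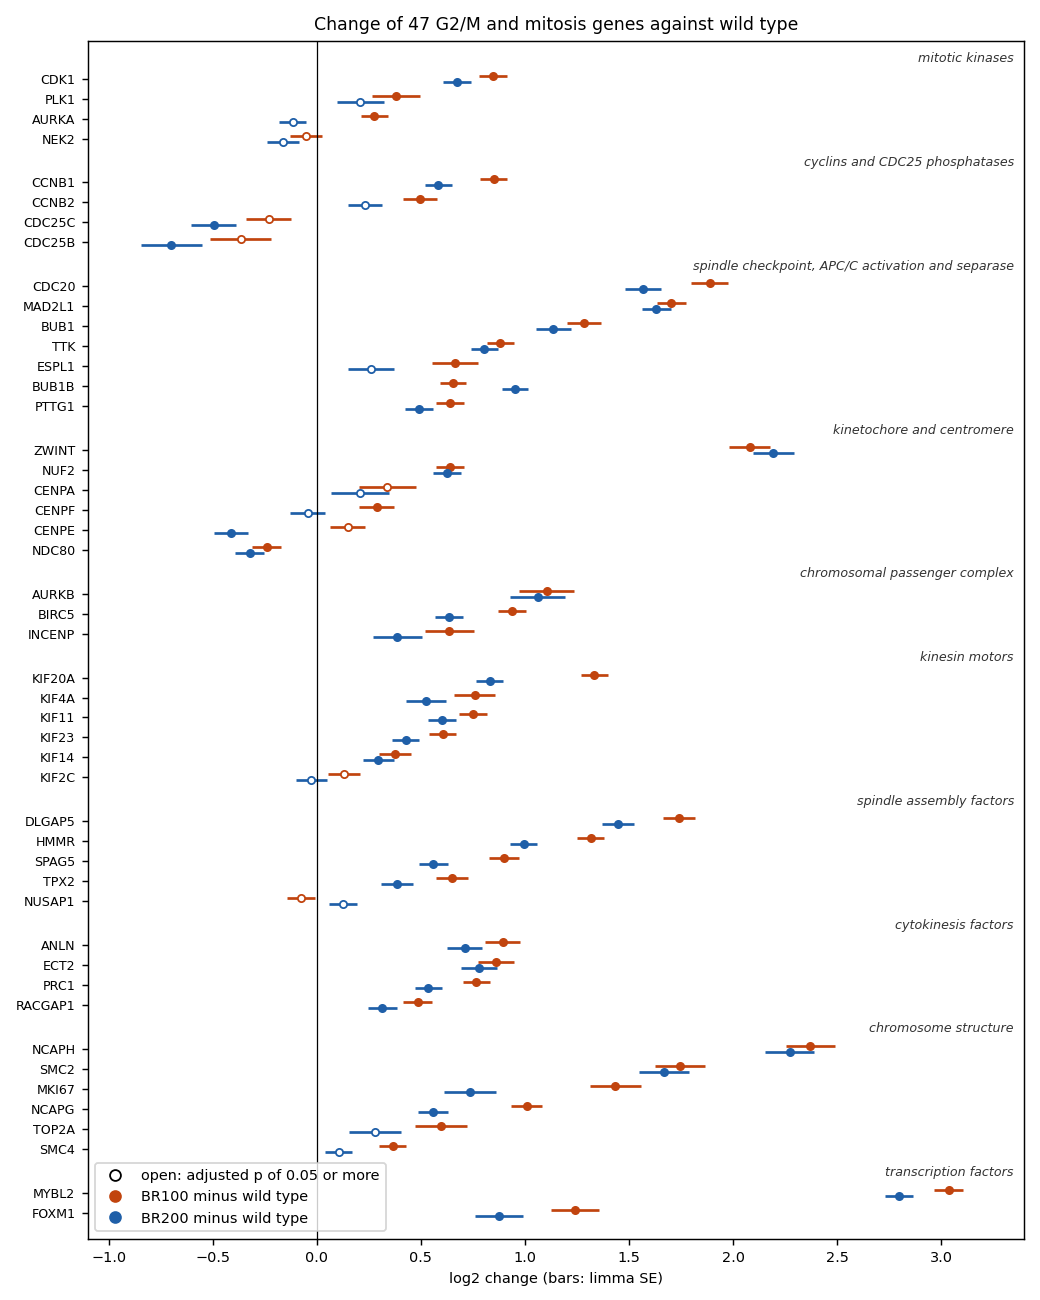
Change of each of the 47 genes against wild type on the log2 scale, with limma's SE as bars, for BR100 (orange) and BR200 (blue), grouped by role; open symbols missed the adjusted p of 0.05. Most points lie right of 0, with MYBL2 farthest at 3.04 in BR100 and 2.80 in BR200, and NDC80, CDC25B and CDC25C lie left of 0 in both.

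RNA quality and identity markers also differed between the variants. The gap between the 3' and 5' probe sets of the ACTB control, which widens as RNA or labelling products get shorter, was 4.22 and 2.99 on the wild type arrays (Express, then One-Cycle), 3.03 and 1.86 in BR100, and 3.24 and 1.76 in BR200. It was widest in wild type within each kit, and its part in the changes described here was not tested. Of 10 colon epithelial markers, 8 reached a log2 value of 4, CDX1 lay under 4 and CDX2 was at the lowest value on every array. Their summed level was 108.9 to 109.8 in wild type and 103.5 to 105 in the resistant variants, and CEACAM5, VIL1, CDH1 and KRT20 were called lower in both resistant variants. Of 7 fibroblast markers only COL1A1 reached 4, and none of 4 endothelial markers did. Their summed levels were 18.96 to 19.25 and 9.18 to 9.43 over the 6 arrays. CD14 and LYZ were the only ones of 5 blood cell markers with a probe set to reach 4. CD14 read 5.59 and 5.33 in wild type, 5.82 and 5.64 in BR100, and 6.76 and 6.27 in BR200, and was called higher in BR200 against wild type (1.05, adjusted p 0.0013) and against BR100 (0.78, adjusted p 0.0253). LYZ was called in none of these comparisons. The 5 markers had sums of 26.71 and 26.76 in wild type, 27.04 and 27.30 in BR100 and 27.88 and 28.17 in BR200, while PTPRC and CD3E were at the lowest value on all arrays. In bulk RNA a larger share of cells in mitosis and more mitotic RNA per cell cannot be told apart.

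The stretch before the start of these genes was searched for the elements that bind their known regulators. A window from 250 bases before to 50 after the start was taken from RefSeq on GRCh38.p14, which held an entry for 41 of the 47 genes (AURKA, TTK, TPX2, BIRC5, RACGAP1 and FOXM1 had none). Both strands were searched for CHR, as TTTGAA or TTCGAA, for the NF-Y box CCAAT, and for E2F, as TTCCCGC, as TTCGCGC, as TTGCCGC and as TTGGCGC. Read on the other strand, the last of these is GCGCCAA, whose end can overlap a CCAAT. Other forms of these elements and other starts of a gene were not searched, so a window without a match may still hold an element. A CHR match stood in 30 of the 41 windows (73.2%), against 16.6% of all 27305 windows of that length. CCAAT stood in 28 (68.3%, against 35.7%), E2F in 13 (31.7%, against 13.1%), and CHR with CCAAT in 22 (53.7%, against 6.58%). Among the 8620 windows of genes tested on the arrays the shares were 11.3% for CHR, 37.6% for CCAAT, 21.3% for E2F and 4.95% for CHR with CCAAT. The 200 bases before the start of 5 genes are given as examples, with the matches in capitals in the orientation of the gene, so that a match on the other strand reads as its complement (TTCAAA for CHR). CDC20 and ZWINT were among the members with the largest rises, MYBL2 rose most, CCNB2 shows the spaced CCAAT boxes before a CHR, and CDC25B was lower in BR200.
CDC20: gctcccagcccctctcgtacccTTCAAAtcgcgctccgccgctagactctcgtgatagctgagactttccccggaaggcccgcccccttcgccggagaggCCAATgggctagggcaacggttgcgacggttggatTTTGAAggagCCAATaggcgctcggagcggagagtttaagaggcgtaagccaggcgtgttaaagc
CCNB2: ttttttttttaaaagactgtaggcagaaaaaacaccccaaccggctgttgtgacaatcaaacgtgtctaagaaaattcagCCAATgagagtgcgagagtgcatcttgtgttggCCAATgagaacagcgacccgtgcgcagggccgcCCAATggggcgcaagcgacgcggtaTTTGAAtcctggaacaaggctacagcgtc
ZWINT: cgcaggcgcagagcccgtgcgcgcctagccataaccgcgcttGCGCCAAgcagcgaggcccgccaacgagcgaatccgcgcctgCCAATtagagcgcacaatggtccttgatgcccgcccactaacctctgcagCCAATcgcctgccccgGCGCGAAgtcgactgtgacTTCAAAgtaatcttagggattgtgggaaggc
MYBL2: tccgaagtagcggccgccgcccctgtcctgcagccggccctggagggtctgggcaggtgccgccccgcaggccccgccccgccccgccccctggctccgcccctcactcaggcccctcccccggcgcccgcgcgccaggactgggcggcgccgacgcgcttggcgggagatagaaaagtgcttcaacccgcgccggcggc
CDC25B: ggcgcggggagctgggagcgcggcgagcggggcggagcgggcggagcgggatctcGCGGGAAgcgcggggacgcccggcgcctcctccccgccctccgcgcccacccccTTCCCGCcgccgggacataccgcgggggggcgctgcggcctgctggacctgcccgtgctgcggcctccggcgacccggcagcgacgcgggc

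These stretches lie at chr1:43358781-43358980 (plus strand) for CDC20, chr15:59104946-59105145 (plus) for CCNB2, chr10:56361260-56361459 (minus) for ZWINT, chr20:43666914-43667113 (plus) for MYBL2 and chr20:3786751-3786950 (plus) for CDC25B. In CCNB2 the CCAAT matches start 120, 87 and 54 bases before the start and the CHR 29 bases before it. CDC20 has CHR matches at 178 and 65 bases and CCAAT at 100 and 55. ZWINT carries all the searched elements, with E2F matches at 158 and 50 bases, CCAAT at 116 and 66 and CHR at 31. No match to the forms searched stood in the stretch of MYBL2, which does not show that it lacks these elements. It holds ttggcgg, which differs from the searched TTGGCGC only in its last base. CDC25B held only E2F matches, at 145 and 91 bases. Genes with and without a CHR match had close median changes, with no test made. Genes with one had a median change of 0.75 in BR100 and 0.56 in BR200 (n = 30 genes), and genes without one 0.64 and 0.49 (n = 11). By the forms and starts searched, the 3 genes with an E2F match and no CHR match were CDC25B, CDC25C and CCNB1. They made up 7.32% of the 41, against 11.6% of all windows and 19.1% of those of genes tested. These 3 were singled out after their values were seen, and they may hold a CHR of another form. Of these CCNB1 rose in both variants and both CDC25 genes fell in BR200.

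Both transcription factors of the group rose, MYBL2 more than any other of the 47 genes. MYBL2 (B-Myb), which joins MuvB to switch on late cell cycle genes, read 6.22 and 6.42 on the wild type arrays (Express, then One-Cycle, the order used throughout), 9.20 and 9.51 in BR100, and 8.99 and 9.25 in BR200. All resistant arrays lay far above both wild type arrays. The change was 3.04 (SE 0.07, adjusted p 7.56e-05) in BR100, or 8.20-fold, and 2.80 (SE 0.07, adjusted p 0.000101) in BR200. FOXM1, the forkhead activator of G2 genes, read 8.14 and 8.23 in wild type, 9.18 and 9.67 in BR100, and 8.92 and 9.20 in BR200. It rose by 1.24 (SE 0.11, adjusted p 0.00111) in BR100 and by 0.88 (SE 0.11, adjusted p 0.00324) in BR200, again with no overlap with wild type.

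Of the 4 mitotic kinases, 3 were called higher in BR100 and 1 in BR200. CDK1, the kinase that starts mitosis, read 11.77 and 11.53 in wild type, 12.56 and 12.42 in BR100, and 12.42 and 12.23 in BR200. It rose by 0.85 (SE 0.07, adjusted p 0.000741) in BR100 and by 0.67 (SE 0.07, adjusted p 0.00149) in BR200. AURKA, the kinase of the spindle poles, read 12.05 and 11.85 in wild type, 12.30 and 12.15 in BR100, and 11.92 and 11.75 in BR200. Its arrays overlapped between wild type and BR200. The AURKA change was 0.27 (SE 0.07, adjusted p 0.0192) in BR100 and -0.12 (SE 0.07, adjusted p 0.179) in BR200. Its other probe sets gave 0.40 and 0.60 in BR100, and 0.02 and 0.08 in BR200. PLK1, the Polo kinase that acts at poles, kinetochores and the midbody, changed by 0.38 (SE 0.11, adjusted p 0.0401) in BR100 and by 0.21 (SE 0.11, adjusted p 0.175) in BR200, and differed far more between the kits, as described below. NEK2, which helps to split the centrosomes, was not called, at -0.05 in BR100 and -0.16 in BR200 (SE 0.08).

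Among the cyclins and CDC25 phosphatases, both cyclins were called higher in BR100, and in BR200 1 cyclin was called higher and both phosphatases lower. CCNB1 (cyclin B1), the main partner of CDK1, read 11.82 and 12.01 in wild type, 12.65 and 12.87 in BR100, and 12.42 and 12.57 in BR200. It rose by 0.85 (SE 0.07, adjusted p 0.000661) in BR100 and by 0.58 (SE 0.07, adjusted p 0.00204) in BR200. A second CCNB1 probe set rose by 0.24 in BR100 and was not called in BR200, at 0.04. CCNB2 (cyclin B2) read 12.42 and 12.16 in wild type, 12.81 and 12.76 in BR100, and 12.61 and 12.43 in BR200, and rose by 0.49 (SE 0.08, adjusted p 0.00631) in BR100. In BR200 its change of 0.23 (SE 0.08, adjusted p 0.0648) missed the threshold. The phosphatases, which remove the inhibitory phosphates from CDK1, were lower on every resistant array than on either wild type array. CDC25B read 9.48 and 9.19 in wild type, 8.85 and 9.09 in BR100, and 8.61 and 8.66 in BR200. Its change was -0.37 (SE 0.15, adjusted p 0.0843) in BR100 and -0.70 (SE 0.15, adjusted p 0.0135) in BR200. CDC25C read 8.29 and 8.02 in wild type, 7.88 and 7.96 in BR100, and 7.75 and 7.56 in BR200. The CDC25C change was -0.23 (SE 0.11, adjusted p 0.122) in BR100 and -0.50 (SE 0.11, adjusted p 0.0155) in BR200, so that both phosphatases were called in BR200 alone. Neither differed between BR200 and BR100 at the threshold (adjusted p 0.209 and 0.188).

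All 7 genes of the spindle checkpoint, APC/C activation and separase group were called higher in BR100 and 6 of 7 in BR200, with medians of 0.88 and 0.95. CDC20, which activates the APC/C and is the target of the checkpoint, read 10.25 and 10.11 in wild type, 12.05 and 12.08 in BR100, and 11.85 and 11.64 in BR200. It rose by 1.89 (SE 0.09, adjusted p 0.000224) in BR100, or 3.70-fold, and by 1.57 (SE 0.09, adjusted p 0.000357) in BR200. MAD2L1 (MAD2), the checkpoint protein that captures CDC20, read 11.24 and 11.20 in wild type, 12.99 and 12.85 in BR100, and 12.89 and 12.81 in BR200. MAD2L1 and its target thus rose in the same variants, MAD2L1 by 1.70 (SE 0.07, adjusted p 0.000172) in BR100 and 1.63 (SE 0.07, adjusted p 0.000211) in BR200. BUB1, a checkpoint kinase at kinetochores, read 9.34 and 9.37 in wild type, 10.54 and 10.75 in BR100, and 10.38 and 10.61 in BR200. It rose by 1.28 (SE 0.08, adjusted p 0.000438) and by 1.14 (SE 0.08, adjusted p 0.000651). BUB1B (BUBR1) rose by 0.65 in BR100 and 0.95 in BR200 (SE 0.06), TTK (the MPS1 kinase that starts the checkpoint) by 0.88 and 0.80 (SE 0.06), and PTTG1 (securin) by 0.64 and 0.49 (SE 0.07). Separase itself, ESPL1, rose by 0.66 (SE 0.11, adjusted p 0.00636) in BR100 and was not called in BR200, at 0.26 (SE 0.11, adjusted p 0.101).

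Kinetochore and centromere genes were mixed. Of 6 such genes, 3 were called higher and 1 lower in BR100, and 2 higher and 2 lower in BR200. ZWINT, which ties the outer kinetochore to the checkpoint, read 10.34 and 10.32 in wild type, 12.43 and 12.39 in BR100, and 12.40 and 12.64 in BR200. It rose by 2.08 (SE 0.10, adjusted p 0.000231) in BR100, or 4.23-fold, and by 2.19 (SE 0.10, adjusted p 0.000235) in BR200. NUF2 and NDC80 are partners in the NDC80 complex, which grips microtubules, and they moved in opposite directions. NUF2 read 9.18 and 9.14 in wild type, 9.86 and 9.74 in BR100, and 9.83 and 9.74 in BR200, a rise of 0.64 (SE 0.07, adjusted p 0.00157) in BR100 and of 0.62 (SE 0.07, adjusted p 0.00179) in BR200. NDC80 read 11.40 and 11.46 in wild type, 11.22 and 11.15 in BR100, and 11.11 and 11.10 in BR200. It fell by 0.24 (SE 0.07, adjusted p 0.0371) in BR100 and by 0.32 (SE 0.07, adjusted p 0.0161) in BR200. The NDC80 changes were small but larger than the spread within each variant, and no array of a resistant variant reached those of wild type.

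CENPE, a kinesin-like motor that brings chromosomes to the spindle equator, was near wild type in BR100 and under it in BR200. It read 8.67 and 8.42 in wild type, 8.77 and 8.61 in BR100, and 8.32 and 7.94 in BR200. Its change was 0.15 (SE 0.08, adjusted p 0.178) in BR100 and -0.41 (SE 0.08, adjusted p 0.0121) in BR200. CENPF, a large kinetochore and microtubule protein, read 10.81 and 11.04 in wild type, 11.00 and 11.42 in BR100, and 10.66 and 11.09 in BR200, with overlapping arrays. It rose by 0.29 (SE 0.08, adjusted p 0.0367) in BR100 and changed by -0.04 (SE 0.08, adjusted p 0.67) in BR200. CENPA, the histone H3 variant that marks centromeres, changed by 0.34 in BR100 and 0.21 in BR200 (SE 0.14) and was called in neither. A probe set shared by CENPA and SLC35F6, left out of the gene tests, read 9.91 and 9.53 in wild type and 9.58 to 10.30 in the resistant variants.

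The chromosomal passenger complex, which corrects faulty attachments and later directs cytokinesis, had 3 members here. AURKB and BIRC5 were called higher in both variants, and INCENP was too but passed the filter only through resistant arrays. AURKB, its kinase, read 7.79 and 7.69 in wild type, 8.65 and 9.04 in BR100, and 8.75 and 8.86 in BR200. It rose by 1.10 (SE 0.13, adjusted p 0.00231) in BR100 and by 1.06 (SE 0.13, adjusted p 0.00279) in BR200. BIRC5 (survivin) read 9.93 and 9.92 in wild type, 10.84 and 10.89 in BR100, and 10.57 and 10.55 in BR200, with little spread between kits. It rose by 0.94 (SE 0.07, adjusted p 0.000538) and 0.63 (SE 0.07, adjusted p 0.00167). Its other probe sets gave 1.57, 0.04 and 0.78 in BR200. INCENP, the scaffold of the complex, read 3.82 and 3.14 in wild type, 4.40 and 3.83 in BR100, and 4.00 and 3.72 in BR200, all close to background. Its fitted changes were 0.64 (SE 0.12, adjusted p 0.00895) and 0.38 (SE 0.12, adjusted p 0.0423).

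Among the 6 kinesin motors, 5 were called higher in both variants, with medians of 0.68 in BR100 and 0.47 in BR200. KIF20A (MKLP2), which carries the passenger complex to the central spindle, read 8.94 and 9.07 in wild type, 10.25 and 10.42 in BR100, and 9.76 and 9.90 in BR200. It rose by 1.33 (SE 0.06, adjusted p 0.000237) in BR100 and by 0.83 (SE 0.06, adjusted p 0.000749) in BR200. The 3 variants were fully separated, with BR200 between wild type and BR100. KIF4A, a chromosome-bound motor, read 9.70 and 9.82 in wild type, 10.30 and 10.73 in BR100, and 10.16 and 10.41 in BR200, and rose by 0.76 and 0.52 (SE 0.10). KIF11 (Eg5), which pushes the spindle poles apart, read 9.42 and 9.74 in wild type, 10.14 and 10.53 in BR100, and 10.02 and 10.35 in BR200, and rose by 0.75 and 0.60 (SE 0.07). KIF23 (MKLP1) rose by 0.60 and 0.43 (SE 0.07) and KIF14 by 0.38 and 0.30 (SE 0.08). KIF2C (MCAK), a kinesin that takes microtubules apart, was called in neither, at 0.13 and -0.03 (SE 0.08). A second KIF2C probe set was called higher in BR100 by limma, at 0.49 (SE 0.14, adjusted p 0.0422), and not called in BR200, at 0.10.

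Of 5 spindle assembly factors, 4 were called higher in both variants. DLGAP5 (HURP), which stabilises kinetochore fibres, read 9.46 and 9.81 in wild type, 11.12 and 11.63 in BR100, and 10.91 and 11.26 in BR200. It rose by 1.74 (SE 0.08, adjusted p 0.000206) in BR100 and by 1.45 (SE 0.08, adjusted p 0.00033) in BR200. HMMR (RHAMM), a spindle pole protein, read 10.79 and 10.94 in wild type, 12.09 and 12.27 in BR100, and 11.76 and 11.95 in BR200. Its rise was 1.32 (SE 0.06, adjusted p 0.000245) and 0.99 (SE 0.06, adjusted p 0.000493). SPAG5 (astrin) read 8.83 and 8.74 in wild type, 9.67 and 9.70 in BR100, and 9.35 and 9.34 in BR200, and rose by 0.90 and 0.56 (SE 0.07). TPX2, the activator of AURKA on spindles, rose by 0.65 and 0.39 (SE 0.08). NUSAP1, a microtubule bundling protein, read 12.36 and 12.55 in wild type, 12.24 and 12.52 in BR100, and 12.47 and 12.69 in BR200, and was called in neither.

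The 4 cytokinesis factors were all called higher in both variants. ANLN (anillin), which links the contractile ring to the membrane, read 11.37 and 11.44 in wild type, 12.24 and 12.36 in BR100, and 11.98 and 12.26 in BR200. ECT2, the exchange factor that switches on RhoA at the cleavage site, read 11.46 and 11.56 in wild type, 12.37 and 12.37 in BR100, and 12.17 and 12.41 in BR200. No array of a resistant variant overlapped wild type for either gene, and the rises were 0.89 and 0.71 for ANLN (SE 0.08) and 0.86 and 0.78 for ECT2 (SE 0.09). PRC1, which bundles the antiparallel microtubules of the midzone, read 11.02 and 11.26 in wild type, 11.78 and 12.03 in BR100, and 11.56 and 11.79 in BR200. It rose by 0.77 and 0.54 (SE 0.06), and RACGAP1, the partner of KIF23 in centralspindlin, by 0.48 and 0.31 (SE 0.07).

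All 6 chromosome structure genes were called higher in BR100 and 4 of 6 in BR200, with medians of 1.22 and 0.65. NCAPH, the kleisin subunit of condensin I, read 6.23 and 5.75 in wild type, 8.42 and 8.30 in BR100, and 8.32 and 8.20 in BR200. It rose by 2.37 (SE 0.12, adjusted p 0.000249) in BR100, or 5.17-fold, and by 2.27 (SE 0.12, adjusted p 0.000299) in BR200. SMC2, a core ATPase of both condensins, read 8.08 and 8.35 in wild type, 9.64 and 10.28 in BR100, and 9.56 and 10.21 in BR200. Its rise was 1.74 (SE 0.12, adjusted p 0.000511) and 1.67 (SE 0.12, adjusted p 0.00064), while SMC4, the other core ATPase, rose by 0.37 (SE 0.07, adjusted p 0.008) in BR100 and was not called in BR200, at 0.10 (SE 0.07, adjusted p 0.22). MKI67 (Ki-67), the coat of mitotic chromosomes used as a proliferation marker, read 10.58 and 10.32 in wild type, 11.86 and 11.90 in BR100, and 11.10 and 11.26 in BR200. It rose by 1.43 (SE 0.12, adjusted p 0.000904) in BR100 and by 0.73 (SE 0.12, adjusted p 0.00699) in BR200. NCAPG, another condensin I subunit, read 10.61 and 10.27 in wild type, 11.55 and 11.35 in BR100, and 11.10 and 10.90 in BR200. It rose by 1.01 (SE 0.07) and by 0.56 (SE 0.07), and TOP2A, the topoisomerase that untangles sister DNA, by 0.60 (SE 0.13, adjusted p 0.0134) in BR100 with 0.28 (SE 0.13, adjusted p 0.114) in BR200.

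**Figure D2:**
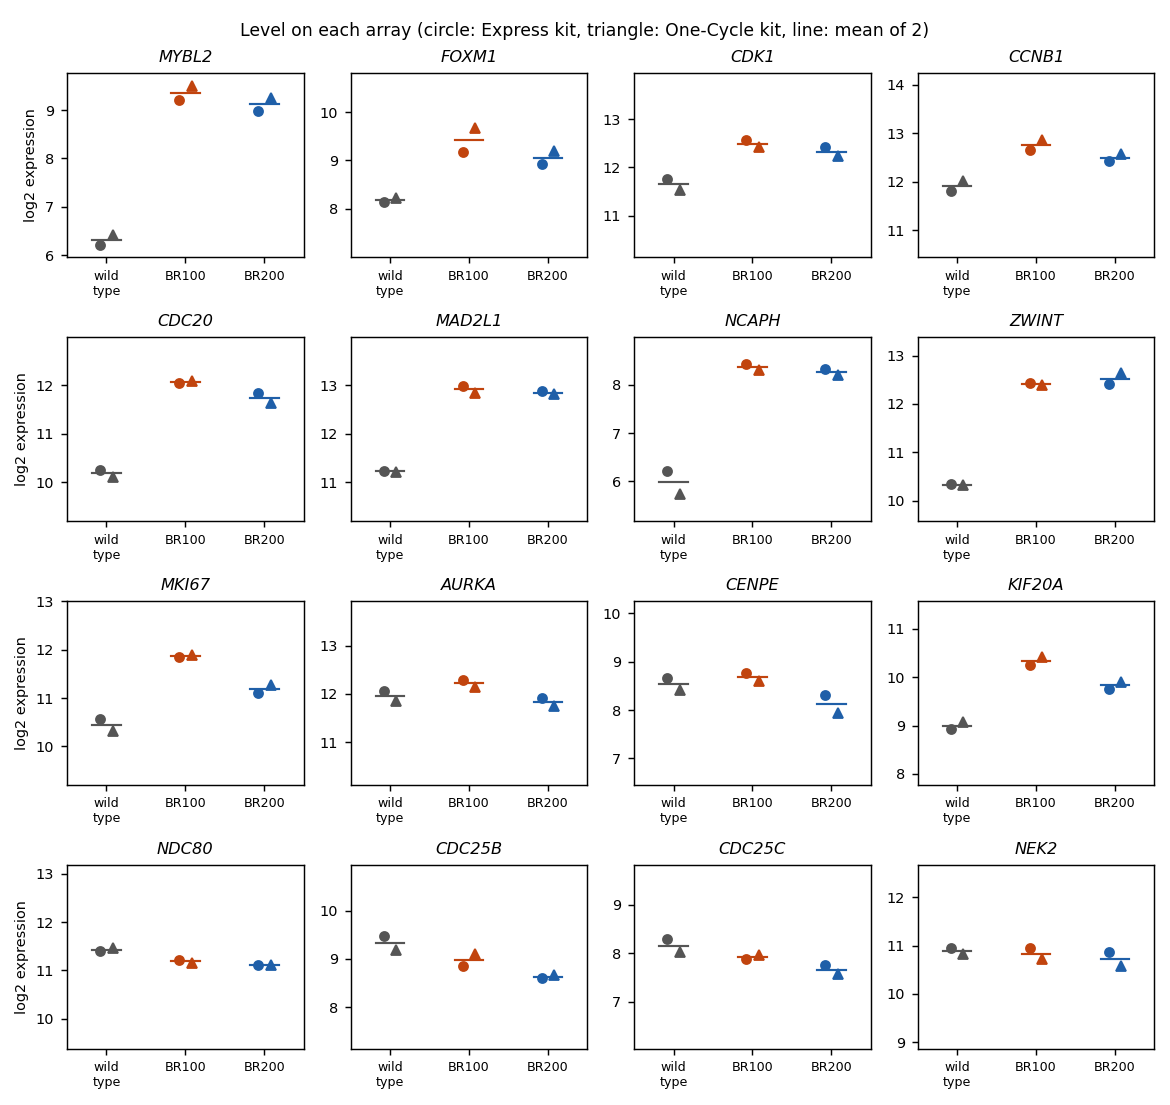
Log2 level of 16 of the genes on each array, by variant, with circles for the Express kit, triangles for the One-Cycle kit and a line at the mean of the 2; every panel spans the same range of log2 units. MYBL2, NCAPH, ZWINT, CDC20 and MAD2L1 separate both resistant variants from wild type, MKI67 and KIF20A place BR200 between wild type and BR100, and NEK2 overlaps throughout.

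Between the resistant variants the group was slightly lower in BR200. The change from BR100 to BR200 was below 0 for 44 of 47 genes (93.6%, against 52.8% of all genes tested), in both kits for 40 of them, with a median of -0.23. The exceptions were BUB1B at 0.30, NUSAP1 at 0.20 and ZWINT at 0.11, none of them called. In limma, 5 of the 47 were called lower in BR200 (10.6% of the genes in either direction, as of all genes, of which 4.23% were called lower) and 0 higher (6.39% of all genes). At an unadjusted p under 0.05 in limma, 20 were lower and 2 higher. The share of all genes at that cutoff was not counted, so these 2 counts are not a result about the group. MKI67 had the largest drop, of -0.70 (SE 0.12, adjusted p 0.0438), and was lower by 0.76 with the Express kit and by 0.64 with the One-Cycle kit. A second MKI67 probe set differed by -0.57 (SE 0.08) and another by -0.12 (SE 0.07).

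The other called genes were CENPE at -0.56 (SE 0.08, adjusted p 0.0324), KIF20A at -0.50 (SE 0.06, adjusted p 0.0253), NCAPG at -0.45 (SE 0.07, adjusted p 0.0393) and AURKA at -0.39 (SE 0.07, adjusted p 0.0396). For each of the 5, both BR200 arrays lay below both BR100 arrays. No call among the 47 genes was left in limma with any single array left out. The loss was not particular to these genes, since limma then called 0 of all 10370 genes without a BR100 or BR200 array and 61 (0.588%) without a wild type array. Leaving out the kit term also left 0, beside 1.08% of all genes called. With an intensity trend in limma there were 18, of which 16 were lower and 2 higher, beside 16.8% of all genes. The median drop was -0.24 to -0.18 with an array left out.

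**Figure D3:**
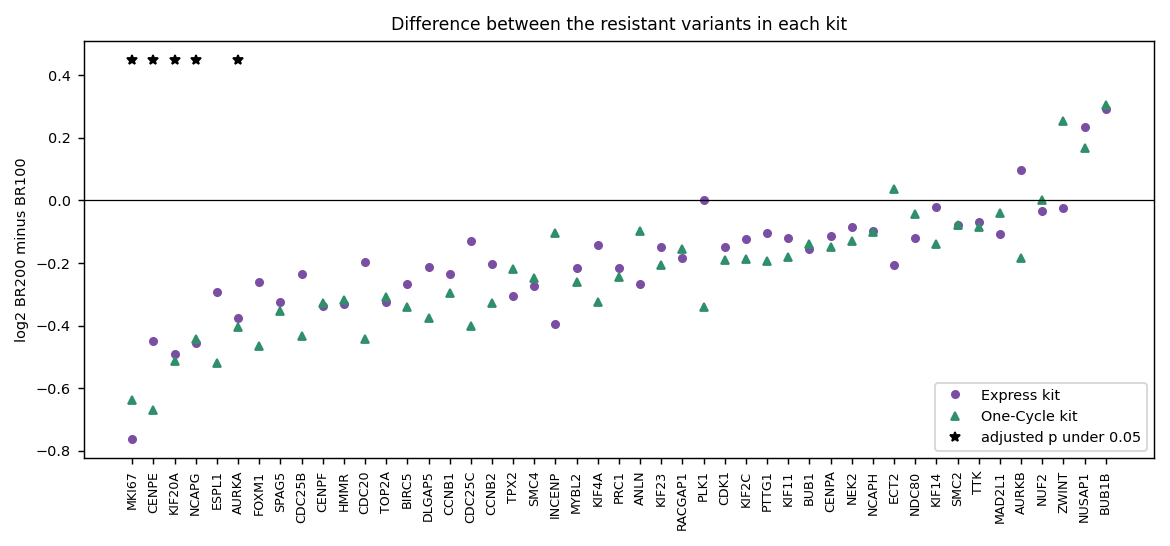
Log2 difference between BR200 and BR100 for each of the 47 genes, in the Express kit (circles) and the One-Cycle kit (triangles), ordered by the fitted difference; stars mark an adjusted p under 0.05. Nearly all points lie below 0, from MKI67 at the left to BUB1B, whose fitted difference is 0.30, at the right.

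Some of these genes differed more between the labelling kits than between the variants. The kits differ in RNA input and in the labelling steps, and 17 of the 47 genes were called between them (36.2%, against 34% of all genes), 6 higher with the Express kit (22.4% of all genes) and 11 lower (11.7% of all genes). PLK1 read 4.63 and 7.81 in wild type, 4.84 and 8.36 in BR100, and 4.84 and 8.02 in BR200. Its kit difference was -3.30 (SE 0.09, adjusted p 0.0013), and on the Express arrays it lay close to the level filter. TPX2 read 10.28 and 11.52 in wild type, 10.88 and 12.21 in BR100, and 10.58 and 11.99 in BR200, a kit difference of -1.33 (SE 0.06, adjusted p 0.00293). In 8 genes the kit difference exceeded the difference between any 2 variants (17.3% of all genes tested): PLK1, TPX2, CENPA, CENPF, KIF14 and NUSAP1, which were called between the kits, and NEK2 and KIF2C, which were not.

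The next largest kit differences were in CENPA, at 0.53 (SE 0.11, adjusted p 0.0311), SMC2, at -0.52 (SE 0.10, adjusted p 0.0234), and INCENP, at 0.51 (SE 0.10, adjusted p 0.0228). Every other member differed between the kits by less than these. When each array was centred on its own median, 3 genes were called higher with the Express kit and 20 lower. The array medians over the genes tested were 8.75 to 8.81 with the Express kit and 8.65 to 8.71 with the One-Cycle kit. All genes tested had a median kit difference of 0.07. The kit was balanced over the variants, and the change from wild type to BR100 was of opposite sign in the kits for NEK2 alone. In BR200 the sign differed between kits for CENPA, CENPF and KIF2C, which were not called there.

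**Figure D4:**
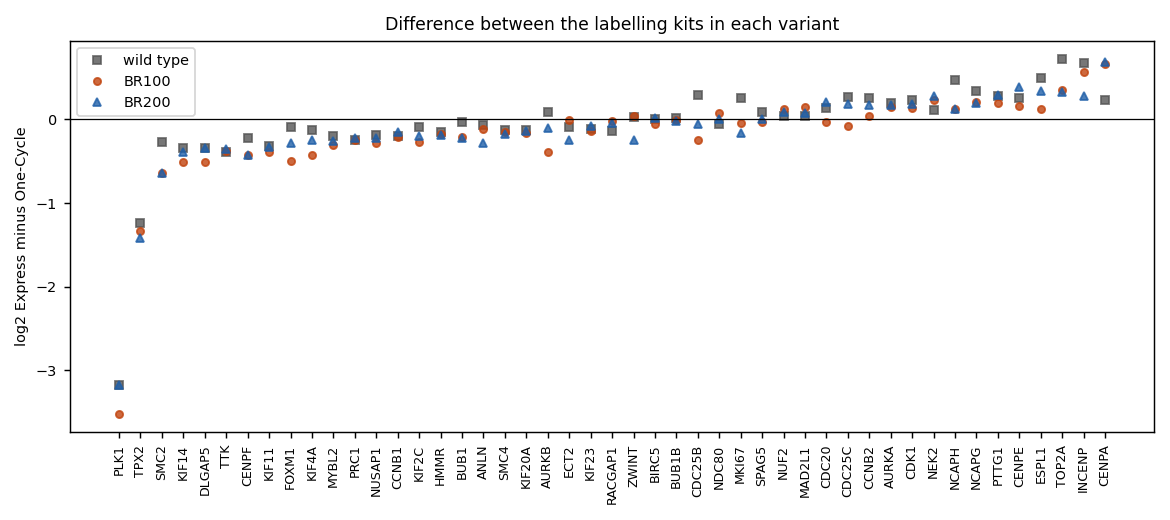
Log2 difference between the Express and One-Cycle kits for each of the 47 genes, in wild type (squares), BR100 (circles) and BR200 (triangles), ordered by the fitted difference. PLK1, at -3.18, -3.53 and -3.18, and TPX2 stand below the rest in all 3 variants.

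Several genes were read by more than 1 probe set, which allowed a check within the gene. Of the 88 probe sets, 79 passed the level filter, and 22 genes had several that did. Of the 32 probe sets not used for the gene values, 29 changed in the same direction as the one used in BR100 and 28 in BR200. Of the 32, 22 were called higher in BR100 and 15 in BR200, and none lower. Among all probe sets that passed the filter, 62.8% were called in either direction in BR100 and 59.6% in BR200. The median gap to the probe set used was 0.44 in BR100 and 0.20 in BR200. Some disagreed in size. The probe sets of MKI67 gave 1.43, 1.33, 0.51 and 0.34 in BR100, those of CCNB1 0.85 and 0.24, and those of SMC4 0.37, 1.07 and -0.23. The lowest of these for SMC4 was not called. In BR200 the probe sets of CCNB1 gave 0.58 and 0.04, and those of BIRC5 0.63, 1.57, 0.04 and 0.78. The lowest of each was not called in limma (adjusted p 0.674 and 0.831), so both BR200 rises depend on the probe set. A second probe set of KIF23 read 6.43 and 5.63 in wild type, 6.39 and 5.79 in BR100, and 7.63 and 7.27 in BR200. It rose by 1.42 (SE 0.13, adjusted p 0.00194) in BR200 and by 0.06 (SE 0.13, adjusted p 0.727) in BR100, whereas the one used rose by 0.43 and by 0.60. A second BUB1 probe set differed by -4.70 between the kits (SE 0.31), while the one used differed by -0.15 (SE 0.07).

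**Figure D5:**
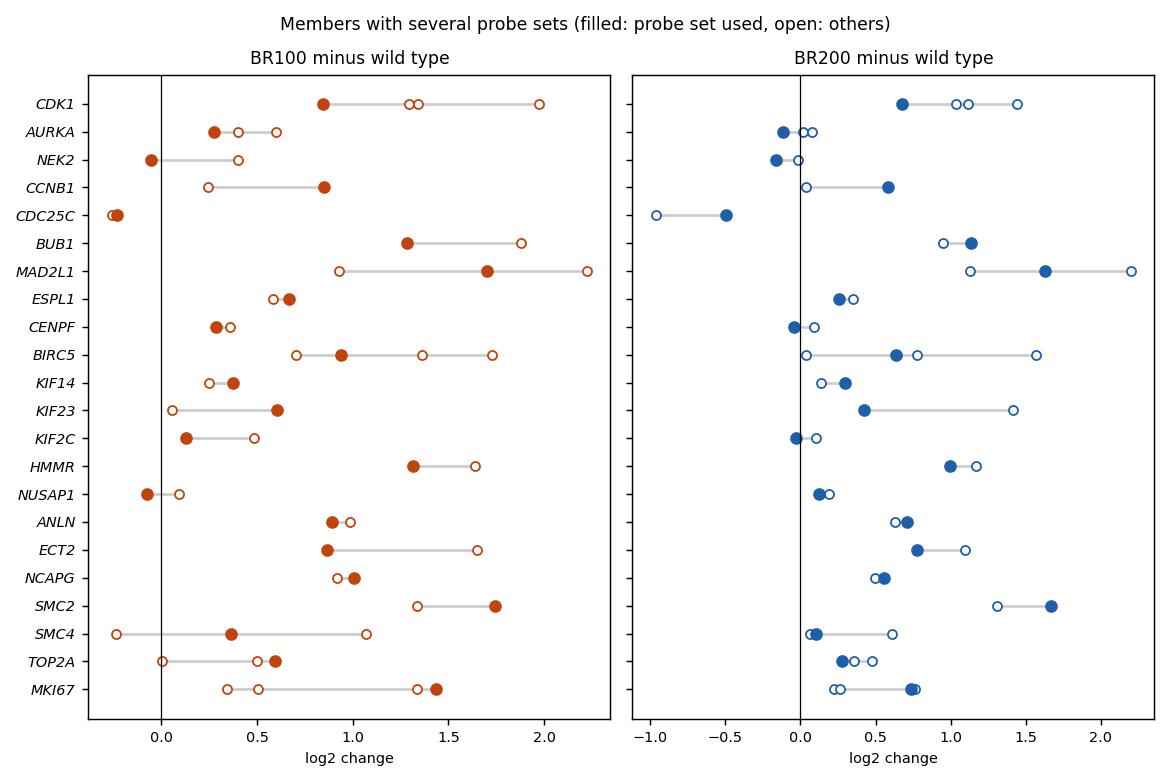
Log2 change against wild type for the 22 genes with several probe sets that passed the filter, in BR100 (left) and BR200 (right), with the probe set used filled and the others open. Most open symbols lie on the same side of 0 as the filled one, and KIF23 in BR200 and SMC4 in BR100 are among the widest apart.

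The rest of the mitotic machinery was read from lists of genes outside the 47. Of all genes tested, 36.7% were called higher and 31.8% lower in BR100, and 35.4% and 31.2% in BR200. Of 14 other mitotic regulators, 13 were called higher in each variant, with medians of 1.35 and 1.10. CCNA2 (cyclin A2) read 10.13 and 10.15 in wild type, 11.44 and 11.53 in BR100, and 11.27 and 11.16 in BR200. It rose by 1.35 and 1.08 (SE 0.08), CDC25A, the remaining CDC25 phosphatase, by 2.43 and 1.76 (SE 0.11), CDCA3 by 2.05 and 1.46 (SE 0.06) and PLK4, which starts centriole duplication, by 1.60 and 1.59 (SE 0.08). CDC25A thus rose while CDC25B and CDC25C were below wild type. Of 28 other checkpoint and kinetochore genes, 23 were called higher in each variant and 1, SKA1, lower in BR200 at -0.24. CENPH rose by 3.15 and 3.39 (SE 0.22), SPC24, which joins NUF2 and NDC80 in their complex, by 2.69 and 2.42 (SE 0.13), CENPM by 2.61 and 2.50 (SE 0.10), and DSN1, of the complex that anchors it, by 2.48 and 2.74 (SE 0.09). All 4 other condensin subunits were called higher in both, led by NCAPG2 at 1.80 and 1.64 (SE 0.10).

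APC/C subunits and their E2 enzymes were more divided. Of 15 tested, 10 were called higher and 1 lower in BR100, and 9 higher and 3 lower in BR200. The shares of all genes were 36.7% higher and 31.8% lower in BR100, and 35.4% and 31.2% in BR200. FBXO5 (EMI1), an APC/C inhibitor, rose by 1.77 and 1.87 (SE 0.07) and the subunit ANAPC4 by 1.33 in each (SE 0.12). ANAPC13 fell by 0.47 and 0.60 (SE 0.08), and in BR200 the E2 enzyme UBE2S fell by 0.61 and the subunit CDC16 by 0.47 (SE 0.08). FZR1 (CDH1), which replaces CDC20 late in mitosis, was called in neither, at 0.12 and -0.12 (SE 0.09). Cohesin, the ring that holds sister chromatids, showed no common direction, with 5 of 12 genes called higher and 5 lower in each variant. These cohesin counts were not far from the shares of all genes. ESCO2 rose by 1.50 and 1.64 (SE 0.24), from levels of 4.84 and 2.81 in wild type, and CDCA5 (sororin), which protects cohesion, by 1.06 and 0.87 (SE 0.12), whereas the ring's release factor WAPL fell by 0.53 and 0.60 (SE 0.08). Among 20 other motors and spindle genes, 16 were called higher in BR100, and 11 higher and 2 lower in BR200. TUBB, a beta tubulin, rose by 1.96 and 1.89 (SE 0.07), KIF15 by 1.76 and 1.30 (SE 0.12) and KIF18B by 1.50 and 1.01 (SE 0.07), while CKAP5 fell by 0.78 (SE 0.16) and DEPDC1 by 0.52 (SE 0.08) in BR200.

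Regulators upstream of the group were read the same way, beside 36.7% of all genes called higher and 31.8% lower in BR100. In BR200 these shares were 35.4% and 31.2%. Of 11 genes of the MuvB, DREAM and RB families, 5 were called higher in each variant and the other 6 were not called. RBL1 (p107) rose by 2.74 and 2.78 (SE 0.06), LIN52 by 1.25 and 1.49 (SE 0.07) and RBBP4 by 0.91 and 0.80 (SE 0.12). LIN54, the MuvB subunit that contacts the CHR, was not called, at -0.36 (adjusted p 0.0502) and -0.32 (adjusted p 0.0712, SE 0.12). Of 8 CDK inhibitors and p53 arrest genes tested, 5 were called lower and 1 higher in BR100, and 6 lower and 1 higher in BR200. CDKN1A (p21) read 9.42 and 9.03 in wild type, 7.29 and 7.07 in BR100, and 7.63 and 7.37 in BR200. It fell by 2.05 and 1.73 (SE 0.08), CDKN2B (p15) by 2.33 and 1.84 (SE 0.10), CDKN1C (p57) by 0.77 and 1.07 (SE 0.15), and GADD45A by 0.92 and 0.30 (SE 0.08). SFN (14-3-3 sigma), which holds CDK1 and cyclin B in the cytoplasm after DNA damage, rose by 1.28 and 1.35 (SE 0.07).

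DNA replication genes, of the preceding phase, were read beside the G2/M group. Of 26 such genes 24 were called higher in each variant (36.7% of all genes were in BR100 and 35.4% in BR200). Their medians were 3.02 in BR100 and 2.84 in BR200, beside 0.75 and 0.56 for the 47. MCM10, GINS4 and ORC1 lay under 4 on both wild type arrays and passed the filter only where they were high, so their changes depend on the background estimate. Among the other 23 genes 22 were called higher in each variant, with medians of 2.99 and 2.84. POLE2, close to the filter in wild type at 3.95 and 4.05, rose by 5.27 and 5.29 (SE 0.07) and GINS2 by 4.83 and 4.76 (SE 0.07). MCM10 read 3.36 and 3.62 in wild type and 8.92 to 9.23 in the resistant variants. The difference between the medians of both groups was not tested.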

How the data were processed

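Expression was measured on Affymetrix arrays of 54675 probe sets, 1 per sample. Per the submitters' processing notes the authors made the values with GCRMA (version not given in the sources used here), which corrects background, normalizes and summarizes probes, and deposited them as log2 expression. The lowest value, 2.23, was shared by all arrays and held by 34.9% to 35.3% of the probe sets of each, and no detection calls were used. Precision is limited by signal over background and by having 2 arrays a variant.

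Probe sets naming 1 gene (41097) were used, and those naming several (1801) or none (11777) were left out. The probe set with the highest mean stood for each of 19775 genes, and genes with at least 2 arrays at a log2 value of 4 were kept (10370). A linear model with variant and labelling kit was fitted to all 6 arrays by lmFit and eBayes of limma 3.58.1 (R 4.3.3), two-sided, with Benjamini-Hochberg adjustment over all genes kept. The residual degrees of freedom were 2, and eBayes added a prior of 2.33. Replicate numbers stand for the kit, which was the block. Errors of changes are limma's standard errors, and SDs were taken over 2 arrays.

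On simulated data for BR100 against wild type (5 runs of 10370 genes), recovery was 32.8% for 1.5-fold, 86.8% for 2-fold and 98% for 4-fold changes. The simulated runs had 9.6 false calls on average. In the data, 68.5% of all genes were called in BR100, some of them under 1.5-fold, such as NDC80 (-0.24) and AURKA (0.27). The simulated recovery and false calls are therefore not estimates for the calls made here. Members, gene lists and tests were chosen with earlier results of these data known. Values by array are given for called genes with the largest change (up to 3 a role and comparison), genes that fell, genes called between the resistant variants and genes with the largest kit difference. Of each other list up to 3 called genes a direction and comparison are named, with FZR1, CCNA2, CDKN1A and LIN54. The alternatives covered the kit term, probe set choice, filter, centring, an intensity trend and each array left out.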

Additional observations from a re-analysis of the deposited data

Results flagged for a closer look

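The effect against wild type differed between BR200 and BR100 by the limma contrast for 5 of the 47 genes, each smaller or more negative in BR200. The differences were -0.70 for MKI67 (adjusted p 0.0438), -0.56 for CENPE (adjusted p 0.0324), -0.50 for KIF20A (adjusted p 0.0253), -0.45 for NCAPG (adjusted p 0.0393) and -0.39 for AURKA (adjusted p 0.0396). MKI67, KIF20A and NCAPG were above wild type in both variants, whereas CENPE changed by 0.15 in BR100 and -0.41 in BR200, and AURKA by 0.27 and -0.12. The other AURKA probe sets gave 0.02 and 0.08 in BR200, neither called, so the sign of AURKA there depends on the probe set. Between BR200 and BR100 they differed by -0.38 and -0.52. With any 1 array left out none of the 5 was called, and limma called 0 of all 10370 genes without a resistant array and 61 without a wild type array. Over these fits the differences ran from -0.84 to -0.56 for MKI67, -0.65 to -0.47 for CENPE, -0.52 to -0.49 for KIF20A, -0.49 to -0.41 for NCAPG and -0.41 to -0.37 for AURKA.

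NUSAP1 lay below wild type in BR100 and above it in BR200 in both kits, with a difference of 0.20 between the variants that was not called (adjusted p 0.136), and neither change against wild type was called. A second NUSAP1 probe set was above wild type in both variants, at 0.09 in BR100 and 0.19 in BR200, neither of them called. The opposite directions thus depend on the probe set.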

How the results depend on the processing

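Against wild type, the number of genes called stayed within 1.5 times of 40 in BR100 (28 to 59) and of 36 in BR200 (24 to 50) under all 14 alternatives, although fewer genes or more probe sets were tested in some. In 13 of them a gene had 1 value. Of the called genes tested in all 13, 20 of 29 kept the call throughout in BR100 and 15 of 24 in BR200, and of the others 8 of 11 and 3 of 12 kept it wherever tested. The BR100 median was 0.65 with the mean of all probe sets of a gene, and 0.67 to 0.79 with an array left out. The BR200 median was 0.51 to 0.59 with an array left out. Without the replicate block, which is the kit, 30 genes were called in BR100 and 25 in BR200, and the calls over all genes fell from 7102 to 4387 in BR100. With no filter on low values they were 4911.

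BR200 against BR100 depended most on the setting, over all genes as well. In place of 5 called genes (10.6% of all genes) there were 0 without the replicate block (1.08% of all genes) and 0 with no filter (0.0759%). Without probe sets ending in _x_at or _s_at there were 3 of 34 (9.52%), 1 higher and 2 lower. Taken singly, 3 of 79 probe sets were called (5.7% of all probe sets), also 1 higher and 2 lower. A filter at a log2 value of 6 gave 9 (17.2%) and an intensity trend 18 (16.8%). The calls were lost with any array left out. The median was -0.17 without _x_at and _s_at probe sets, -0.21 with the stricter filter and -0.24 to -0.18 with an array left out.

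The calls between the kits also depended on the setting, over all genes as well. In place of 17 genes (34% of all genes) there was 1 with no variant term (0.569% of all genes). There were 10 of 34 without _x_at or _s_at probe sets (31%) and 28 of 79 probe sets taken singly (35.2% of all probe sets). There were 4 with no filter (2.37%), 26 with an intensity trend (40.5%) and 2 to 7 with an array left out (4.15% to 17.3%). The kit median was -0.17 on centred arrays and -0.105 to -0.047 with an array left out.

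The reversals listed here came from a change of probe set. Some small changes that were not called also crossed 0 with an array left out. Examples are AURKB between BR200 and BR100 (-0.23 to 0.15) and KIF2C in BR200 against wild type (-0.10 to 0.04). On centred arrays the kit difference was below 0 for 34 genes, against 28 without centring. With the mean of all probe sets, CCNB2 was -0.13 in BR100 and KIF23 was 0.59 between BR200 and BR100. The other CCNB2 probe sets lay under 4 on every array, so its reversal rests on readings close to background. With the same mean, the kit difference was -0.37 for CDC25C, 0.24 for KIF23, -0.57 for MKI67, -0.30 for NEK2, 0.40 for NUSAP1 and -0.031 for TOP2A. Without _x_at and _s_at probe sets, KIF23 was 1.36 between BR200 and BR100, and the kit difference was 0.59 for KIF23, -0.095 for NCAPG, 0.13 for SMC2 and -0.28 for TOP2A. The cause of the other changes was not tested.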
